A study of Mus musculus with 2 samples.

Results

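The HSC ageing marker genes are 10 genes commonly found at higher RNA levels in hematopoietic stem cells (HSCs) of old mice: *Clu*, *Selp*, *Sbspon*, *Gpr183*, *Jam2*, *Sdpr*, *Alcam*, *Nupr1*, *Ehd3* and *Aldh1a1*. They were taken by symbol from the count files, and all 10 were found among the 24421 genes listed. No measured value of these libraries entered the rule, but the genes were chosen with earlier results of the same libraries known. HSCs are the rare marrow cells that renew themselves and supply every blood lineage. With age they become more numerous, shift toward platelet and myeloid output, and raise a recurrent set of transcripts for adhesion molecules, membrane proteins and stress responses. *Ezh2* encodes the main methyltransferase of Polycomb repressive complex 2, which writes the repressive histone mark H3K27me3.

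Bulk RNA was sequenced from 1 library of each genotype, all on the C57BL/6 strain. The WT library came from Ezh2 +/+ CreERT+/- cells and the other from Ezh2 Δ/Δ CreERT+/- cells, made from a floxed allele. In both groups CD45.2 marrow had been placed in lethally irradiated CD45.1 hosts, the hosts had received tamoxifen on 5 days (100 µl of 10 mg/ml each day), and HSCs had been purified 1 month later from the Lin-Sca-1+c-kit+ fraction by the phenotype CD150+CD48-CD34-Flt3-. Transplantation, irradiation, the Cre transgene and tamoxifen are therefore shared by both libraries. The promoter driving the Cre, the ages of donors and hosts and the number of mice behind each library are not given in the sources used here, and the listed sorting markers do not include CD45.1 or CD45.2. A difference in bulk RNA can come from fewer cells of a type or from less RNA per cell, and these cannot be told apart.

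The libraries held 4157280 to 5763118 gene counts. *Ezh2* itself had 166 counts in WT and 129 in the second genotype (log2 ratio 0.08, 95% interval -0.27 to 0.42), so gene-level counts did not show the deletion, and that library is called KO-labelled from here on. Of 12 HSC markers all were tested, with a median log2 ratio of 0.05. By the rule given below 0 were called, where 2.3% of all genes tested were called lower and 2.8% higher. Such ratios compare the libraries and do not show which cells either one holds. *Kit*, the stem cell factor receptor, *Hlf*, *Ly6a* and *Mllt3* were among the most abundant of the markers, and their log2 ratios lay between -0.02 and 0.32. Of the 12 markers 5 were below 0 and 7 above. *Slamf1* (-0.63, interval -0.85 to -0.41) and *Fgd5* (-0.59, -0.79 to -0.39), chosen after their values were seen, had intervals wholly below 0. That of *Ly6a* lay wholly above 0 (0.23 to 0.41). *Xist* had 801 and 4 counts (WT first) and *Ddx3y* 0 and 275, so transcripts of female and male cells separated the libraries, and sex and genotype cannot be told apart. Since there is no replicate, all intervals given here are exact 95% intervals for counting error only, and reads amplified by PCR with no molecular barcode can be copies of one molecule.

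Promoter sequences are shown to let members that were and were not called lower be compared. RefSeq windows on GRCm38.p6 were found for 7 of the 10 genes: *Selp*, *Gpr183*, *Sdpr* (listed there as *Cavin2*), *Alcam*, *Nupr1*, *Ehd3* and *Aldh1a1*. The 250 bases before the RefSeq transcription start are printed for *Sdpr* and *Gpr183*, which were called lower in the KO-labelled library by the rule given below. They are also printed for *Alcam* and *Ehd3*, which were not. Capitals mark every CpG dinucleotide, the site of DNA methylation, and CpG-dense promoters are the class in which Polycomb complexes mostly bind in mammals. The windows are chr1:51288876-51289125 on the plus strand for *Sdpr*, chr14:121965194-121965443 on the minus strand for *Gpr183*, chr16:52453082-52453331 on the minus strand for *Alcam* and chr17:73804591-73804840 on the plus strand for *Ehd3*, each written 5′ to 3′ along the gene.
Sdpr: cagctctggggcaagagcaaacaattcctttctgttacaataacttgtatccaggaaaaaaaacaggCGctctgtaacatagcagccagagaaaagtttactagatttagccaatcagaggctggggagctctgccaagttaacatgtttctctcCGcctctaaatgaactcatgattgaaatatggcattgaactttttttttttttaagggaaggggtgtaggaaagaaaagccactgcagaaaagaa
Gpr183: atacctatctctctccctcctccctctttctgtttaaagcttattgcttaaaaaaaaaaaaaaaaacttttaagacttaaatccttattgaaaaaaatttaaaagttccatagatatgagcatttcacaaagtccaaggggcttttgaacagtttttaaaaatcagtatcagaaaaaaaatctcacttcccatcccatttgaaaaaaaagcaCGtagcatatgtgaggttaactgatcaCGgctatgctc
Alcam: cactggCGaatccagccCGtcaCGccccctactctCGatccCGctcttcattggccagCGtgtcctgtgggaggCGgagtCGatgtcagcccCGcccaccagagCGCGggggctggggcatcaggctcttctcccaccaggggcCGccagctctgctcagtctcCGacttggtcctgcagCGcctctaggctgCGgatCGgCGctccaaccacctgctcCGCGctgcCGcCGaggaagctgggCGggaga
Ehd3: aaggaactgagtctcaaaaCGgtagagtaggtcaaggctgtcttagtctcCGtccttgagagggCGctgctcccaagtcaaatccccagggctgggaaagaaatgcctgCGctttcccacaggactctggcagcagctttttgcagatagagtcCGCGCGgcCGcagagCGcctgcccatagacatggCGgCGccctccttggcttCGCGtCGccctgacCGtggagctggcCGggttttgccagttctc

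*Sdpr* and *Gpr183* had 2 CpGs each, in windows of 40.4% and 32% GC. *Alcam* had 22 CpGs in a window of 69.2% GC, and *Ehd3* had 16 in one of 60% GC. For comparison, the median over 32851 RefSeq windows of the same length was 6 CpGs, 37.8% of windows had at most 3, and 25.4% had at least 16. Of the remaining members with a window, *Selp* had 3 CpGs, *Nupr1* had 6, and the 2 windows of *Aldh1a1* had 3 and 1. The 2 CpG-rich windows thus belonged to *Alcam*, the only member with a ratio above 0, and *Ehd3*, whose ratio was nearest to 0. This is a description of 7 genes, and *Aldh1a1*, with few CpGs and almost equal levels, did not follow it. *Selp*, *Nupr1* and *Aldh1a1* were also not called lower, and each of their windows had 6 CpGs or fewer. *Alcam* and *Ehd3* thus do not stand for all members that were not called. *Clu*, *Sbspon* and *Jam2*, which were called lower, had no window. The windows of *Sdpr*, *Gpr183* and *Selp* lay at the annotated start of the gene. Those of *Alcam*, *Ehd3* and *Nupr1* and the downstream window of *Aldh1a1* lay inside the annotated gene, at a later start. Whether the CpG content goes with this difference was not tested.

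The same windows were searched on both strands for motifs of the ATF, CNC and STAT families, and for AP-1 and GATA. The study reported the ATF, CNC and STAT motifs as enriched in regions that were more accessible in aged HSCs, mostly outside promoters. The promoter windows searched here are a different set of regions, so they do not bear on that result. The letters were TGACTCA for AP-1, TGACGTCA for the CRE of ATF factors, TGACNNNGC for the element of CNC factors, TTCNNNGAA for STAT and AGATAA for GATA. The AP-1 letters, where G and then C come next, also match the CNC element. The motifs were present in 4.46%, 1.55%, 10.2%, 7.02% and 9.99% of all windows, in that order. Only *Nupr1* and *Aldh1a1* held a match, printed here with 10 bases on each side and the match in capitals. They lay at -128 to -120 from the RefSeq start of *Nupr1*, at -57 to -51 from the upstream start of *Aldh1a1* (AP-1) and at -32 to -27 from its downstream start (GATA). The bases just after the upstream *Aldh1a1* start, unlike those of the other windows, were not found in an annotated transcript of the gene. That start is therefore less certain. These matches are letters in a window and do not show that a factor binds there.
Nupr1 STAT: atgggcccagTTCTGGGAAagggccagat
Aldh1a1 AP-1: aaatgtcatcTGACTCAgtggggaaac
Aldh1a1 GATA: tagtgcatgcAGATAAaaaggagcaa

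Across the members, 9 of 10 log2 ratios (KO-labelled over WT, on normalised counts plus 1) were below 0 and the median was -0.91. Among all 12588 genes tested, 50.4% were below 0 and the median was -0.003. A gene was called when an exact binomial test of its 2 counts had a Benjamini-Hochberg adjusted value below 0.01 and the difference was at least 2-fold, which compares these 2 libraries and not the genotypes. By this rule 5 members were lower, *Sbspon*, *Gpr183*, *Sdpr*, *Clu* and *Jam2*, against a background of 2.3% of genes tested. No member was higher, where the background was 2.8%. Of the 8 members that averaged 100 normalised counts or more, here termed well expressed, 3 were called lower (*Sdpr*, *Clu* and *Jam2*), and 0.569% of the 8083 genes at that level were. In the plot of both levels of each gene, the 2 most abundant members (*Selp* and *Aldh1a1*) were not called and the 2 least abundant (*Sbspon* and *Gpr183*) were.

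**Figure D1:**
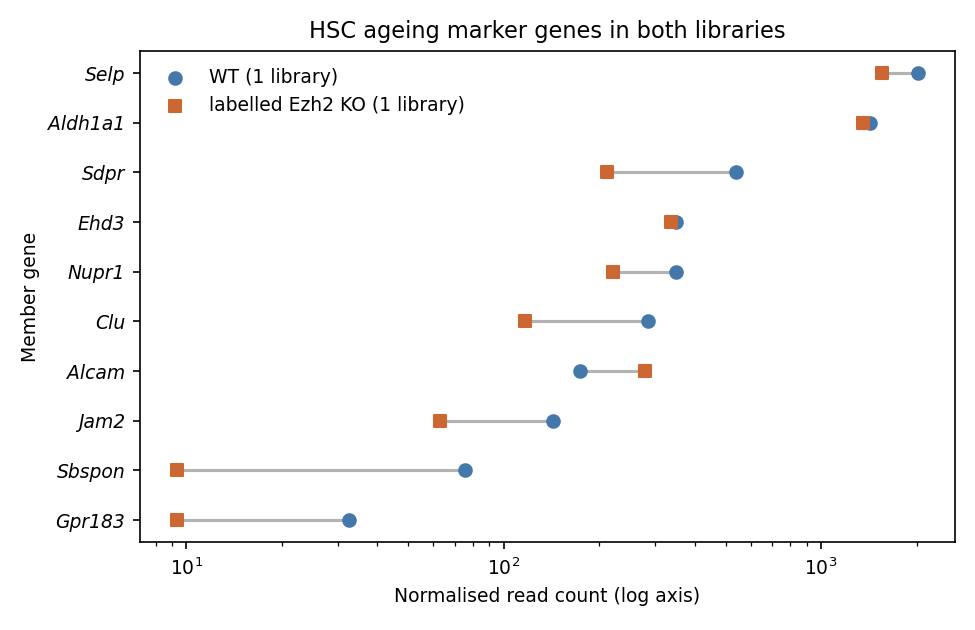
Normalised read count (x, log axis) of each of the 10 ageing marker genes (y) in the WT library (circles) and the KO-labelled library (squares), joined by a line, with 1 library per group and no error bar. The KO-labelled value is the lower one for 9 genes and the higher one for *Alcam*; *Sbspon* has the longest line, from 75.5 to 9.3.

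The secreted products were both lower. *Clu* encodes clusterin, a secreted chaperone and lipoprotein component that is among the most used marks of aged HSCs (chromosome 14, 65968483 to 65981547 on GRCm38, plus strand). It had 331 counts in WT and 100 in the KO-labelled library, which is 284.0 and 116.5 normalised counts. The levels differed 2.43-fold, with a log2 ratio of -1.28 (-1.62 to -0.96). Only 13 of the 8083 well expressed genes had a lower ratio.

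*Sbspon* encodes a small secreted protein with somatomedin B and thrombospondin type 1 domains (chromosome 1, 15853862 to 15892722, minus strand). It had 88 counts in WT and 8 in the KO-labelled library, or 75.5 and 9.3 normalised counts. This was the largest difference of the 10 genes, 7.41-fold lower with a log2 ratio of -2.89 (-4.27 to -1.98), and 50 of the 12588 genes tested had a lower ratio. Of the 60-base windows in its annotated transcripts, 72.3% also occur in *Gm37509*, an annotated transcript on the opposite strand for which no count was used here. The strand setting of the counting is not known, so reads of the 2 transcripts cannot be told apart.

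The adhesion molecules went different ways. *Selp* encodes P-selectin, stored in platelet and endothelial granules and used to tether leukocytes (chromosome 1, 164115264 to 164150026, plus strand). It was the most abundant member, with 2351 counts in WT and 1340 in the KO-labelled library, or 2017 and 1562 normalised counts. The difference was 1.29-fold, with a log2 ratio of -0.37 (-0.47 to -0.27). The interval excludes 0, but the gene was not called, and 12.0% of well expressed genes had a lower ratio. *Gm16548*, a lincRNA on the other strand that shares 438 exonic bases with *Selp*, had 335 and 204 counts (log2 ratio -0.27, -0.53 to -0.02).

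*Jam2*, a junctional adhesion molecule of endothelium and HSCs (chromosome 16, 84774123 to 84825928, plus strand), had 166 counts in WT and 54 in the KO-labelled library. These are 142.5 and 62.9 normalised counts, a 2.24-fold difference with a log2 ratio of -1.17 (-1.65 to -0.73). *Alcam*, the activated leukocyte cell adhesion molecule CD166 (chromosome 16, 52248996 to 52454074, minus strand), was the exception among all members. Its WT count was 203 and its count in the shallower KO-labelled library 240, or 174.2 and 279.7 normalised counts. The KO-labelled level was 1.60-fold higher, with a log2 ratio of 0.68 (0.41 to 0.96), which did not reach the 2-fold threshold. Of well expressed genes, 98.2% had a lower ratio than *Alcam*.

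*Gpr183* encodes EBI2, a chemotactic receptor for oxysterols such as 7α,25-dihydroxycholesterol (chromosome 14, 121952551 to 121965195, minus strand). It was the least abundant member, with 38 counts in WT and 8 in the KO-labelled library, or 32.6 and 9.3 normalised counts. The level was 3.26-fold lower, with a log2 ratio of -1.70 and a wide interval (-3.12 to -0.68). With 8 counts in 1 library, the interval reaches from a difference below 2-fold to one far above it. *Ubac2*, which encloses *Gpr183* on the opposite strand and shares no exonic base with it, had 848 and 802 counts (log2 ratio 0.36, 0.22 to 0.50). The pair thus had ratios on opposite sides of 0 at the same place in the genome.

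The membrane-shaping genes were split. *Sdpr*, now named *Cavin2*, encodes a cavin that coats and bends caveolae (chromosome 1, 51289126 to 51302960, plus strand). It had 628 counts in WT and 181 in the KO-labelled library, or 538.9 and 210.9 normalised counts. The level was 2.55-fold lower with a log2 ratio of -1.35 (-1.60 to -1.11), and only 9 of the 8083 well expressed genes had a lower ratio. *Sdpr* and *Sbspon* were the only 2 members whose whole interval lay below a 2-fold decrease. *Ehd3*, an ATPase of the EHD family that tubulates endosomal membranes (chromosome 17, 73804134 to 73832094, plus strand), had 407 and 289 counts, or 349.3 and 336.8 after normalisation (log2 ratio -0.05, -0.28 to 0.17).

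The last members were a stress regulator and an enzyme. *Nupr1*, a small chromatin-associated protein induced by cell stress (chromosome 7, 126623249 to 126630861, minus strand), had the same WT count as *Ehd3*, 407, but 189 in the KO-labelled library. Its normalised counts were 349.3 and 220.2, a 1.58-fold difference with a log2 ratio of -0.66 (-0.92 to -0.41), and it was not called. *Aldh1a1* encodes a retinaldehyde dehydrogenase of the ALDH family, whose activity is used to mark stem cells (chromosome 19, 20492715 to 20643465, plus strand). It had 1665 and 1167 counts, or 1429 and 1360 after normalisation. This gave a log2 ratio of -0.07 (-0.18 to 0.04), so its levels differed by less than counting error could show. Only 2.11% of its 60-base windows also occur in the paralog *Aldh1a7*, which had 7 and 2 counts.

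**Figure D2:**
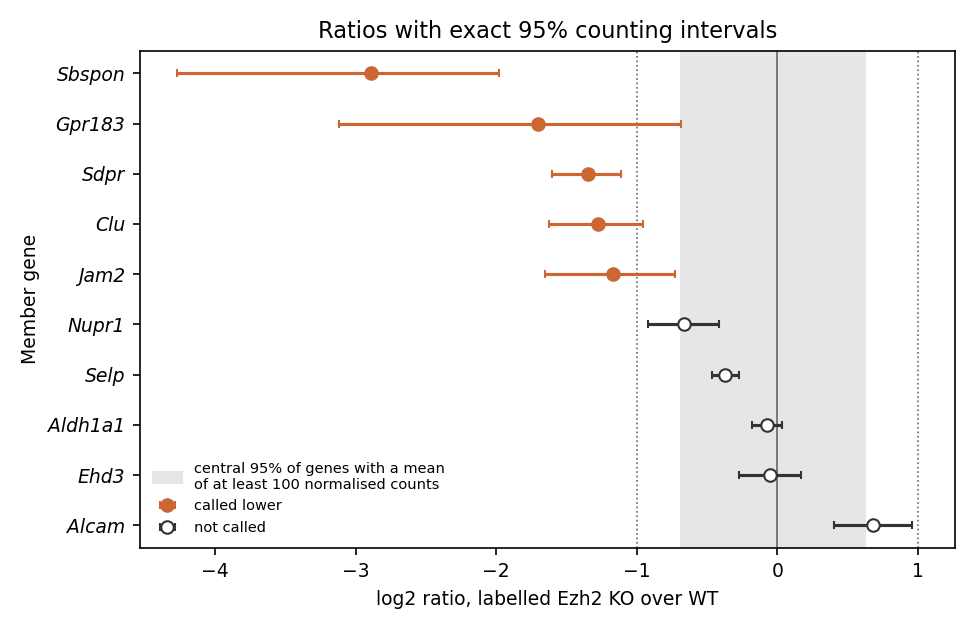
Log2 ratio of the KO-labelled library over WT (x) for each of the 10 ageing marker genes (y), with exact 95% intervals for counting error as bars. Filled points are the 5 genes called lower; the grey band spans -0.68 to 0.63, the central 95% of well expressed genes, and dotted lines mark 2-fold.

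In all, 7 members had an interval wholly below 0, 1 had an interval wholly above 0 (*Alcam*) and 2 had an interval that held 0 (*Ehd3* and *Aldh1a1*). Because *Selp* and *Aldh1a1* carried 63.9% of the members' normalised counts in WT, the summed level, 5393 in WT and 4167 in the KO-labelled library, had a log2 ratio of -0.37, nearer to 0 than the median gene. Without those 2 genes the log2 ratio of the sum was -0.64. Among the 10 genes the ratio was lower where the mean level was lower (Spearman 0.58) and where the exons were shorter (0.76). Over the 8051 well expressed genes with an annotated length, the Spearman correlation of ratio and length was -0.03. All of these points come from the same 2 libraries.

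**Figure D3:**
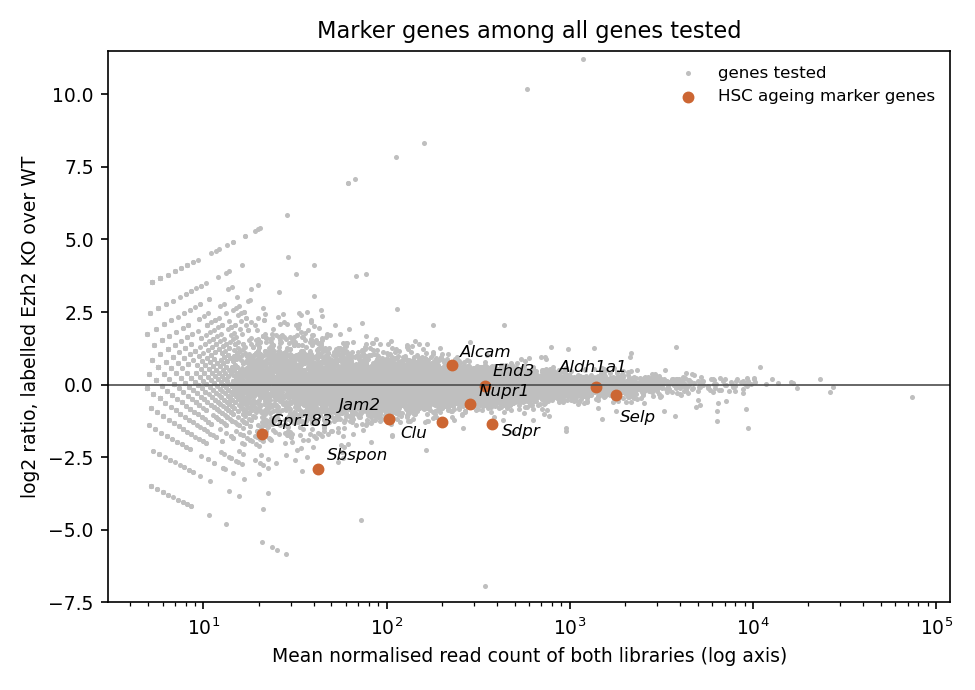
Log2 ratio of the KO-labelled library over WT (y) against the mean normalised read count of both libraries (x, log axis) for the 12588 genes tested (grey) and the 10 ageing marker genes (orange). *Sdpr*, *Clu* and *Sbspon* lie at the lower edge of the cloud, and *Aldh1a1* and *Ehd3* lie at its centre.

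Levels can be compared between genes only per length, here as CPM (counts scaled to the total gene count of the library) per kb of annotated exon. In WT *Selp* was highest at 92.4 and *Aldh1a1* followed at 58.5. *Sdpr* had 35.7, *Nupr1* 28.1, *Clu* 16.7 and *Ehd3* 10.8, and the counting intervals of these 6 genes did not overlap. *Sbspon* (5.56), *Alcam* (4.95) and *Jam2* (4.77) had overlapping intervals, and *Gpr183* was lowest at 2.28.

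The order was partly different in the KO-labelled library. *Selp* (73.0) and *Aldh1a1* (56.9) still led, while *Nupr1* (18.1) and *Sdpr* (14.25) exchanged places with overlapping intervals. *Ehd3* had 10.6. *Alcam* (8.11) now stood beside *Clu* (7.0), again with overlapping intervals, and *Jam2* had 2.15. *Sbspon* (0.70) and *Gpr183* (0.667) were lowest and could not be separated. The span from the highest to the lowest gene was 40.5-fold in WT and 109.6-fold in the KO-labelled library.

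**Figure D4:**
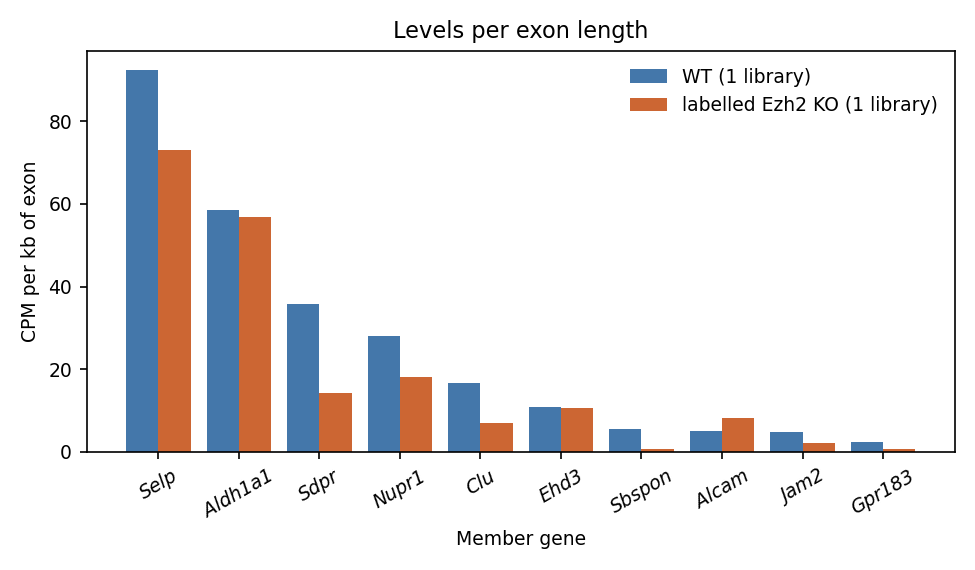
Level per exon length (y, CPM per kb of exon, linear axis from 0) of each ageing marker gene (x) in the WT and KO-labelled libraries, 1 library per bar. *Selp* and *Aldh1a1* are the tallest bars in both, and *Alcam* is the only gene whose KO-labelled bar is the taller.

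Other genes known to rise in old HSCs did not all follow the 10 markers. Of a list of 35 such genes, 33 were tested, 4 were called lower (*Gstm2*, *Vwf*, *Dsg2* and *Itgb3*) and 0 higher. Of all genes tested 2.3% were called lower and 2.8% higher, which is the background for this and the later lists. The list was below 0 at 19 genes and above 0 at 14, with a median log2 ratio of -0.06. *Vwf*, von Willebrand factor and a mark of platelet-biased HSCs, had 1677 and 411 counts, a log2 ratio of -1.59 (-1.75 to -1.43). *Itgb3*, the integrin β3 chain of the platelet fibrinogen receptor, had 403 and 144 counts (log2 ratio -1.04). The desmosomal cadherin *Dsg2* had 75 and 26 counts (-1.06), and *Gstm2*, one of a family of similar glutathione transferases among which reads can be split, had 316 and 48 (-2.26).

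Of the most abundant genes of that list, only *Vwf* was called. *Tgm2*, a transglutaminase, had 4552 and 3517 normalised counts (log2 ratio -0.37), and *Mmrn1*, a platelet and endothelial multimerin, had 3530 and 3151 (-0.16). The membrane mucin *Muc13* (0.04) and the tetraspanin *Cd9* (0.03) were almost equal. *Slamf1*, which encodes the sorting marker CD150, had 520 and 248 counts (-0.63), and *Sult1a1*, a sulfotransferase, had 567 and 419 (0.01). The last 2 were chosen after their values were seen.

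Partners and relatives of the members were taken from a list of 33 genes, of which 24 were tested. Against the background of 2.3% lower and 2.8% higher, 0 were called lower and 1 was called higher. The median log2 ratio was -0.16. *Selplg*, which encodes PSGL-1, the main ligand of P-selectin, had 1042 and 928 counts (0.27), and *Sele*, E-selectin, chosen after its values were seen, was listed at 0 in both libraries.

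Of the 24 tested partners and relatives 17 were below 0, and whether they differed less than the members was not tested. Beside *Jam2*, the related genes *Jam3* (-0.57, interval -0.87 to -0.28) and *Esam* (-0.27, -0.40 to -0.14) were below 0 but not called, as was *F11r* (-0.15). Beside *Sdpr*, the caveolar coat genes *Ptrf* (-0.13) and *Prkcdbp* (-0.26) and the caveolin *Cav2* (0.10) were within 1.5-fold, while *Cav1* had only 6 and 9 counts. *Ehd1* (-0.30) and *Ehd4* (-0.04) lay near *Ehd3*, and *Ehd2* (36 and 11 counts, -1.21) was not called. The values in parentheses are log2 ratios, and apart from *Esam*, *Ehd4*, *Selplg* and the 2 genes named in the next sentences these relatives were chosen after their values were seen. *Aldh2*, the mitochondrial aldehyde dehydrogenase, had 5929 and 5443 normalised counts (-0.12). *Atf4*, a stress factor that can induce *Nupr1*, had 788.6 and 749.3 (-0.07).

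For the oxysterol pathway of *Gpr183*, *Ch25h*, the hydroxylase that starts ligand synthesis, was listed at 0 in both libraries. *Cyp7b1*, which adds the 7α hydroxyl group, had 123 and 61 counts (log2 ratio -0.56), and *Hsd3b7*, which degrades the ligand, had 759 and 489 (-0.19). Neither *Cyp7b1* nor *Hsd3b7* was called, and all 3 genes were chosen after their values were seen. The protein-coding genes on either side of the 10 members were also read. Of these 20 neighbours 14 were tested. Against the background of 2.3% lower and 2.8% higher, 0 were called lower and 2 higher, among them *Scara3* beside *Clu* (4 and 17 counts). Their median log2 ratio was 0.13, and 4 of the 14 were below 0.

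**Figure D5:**
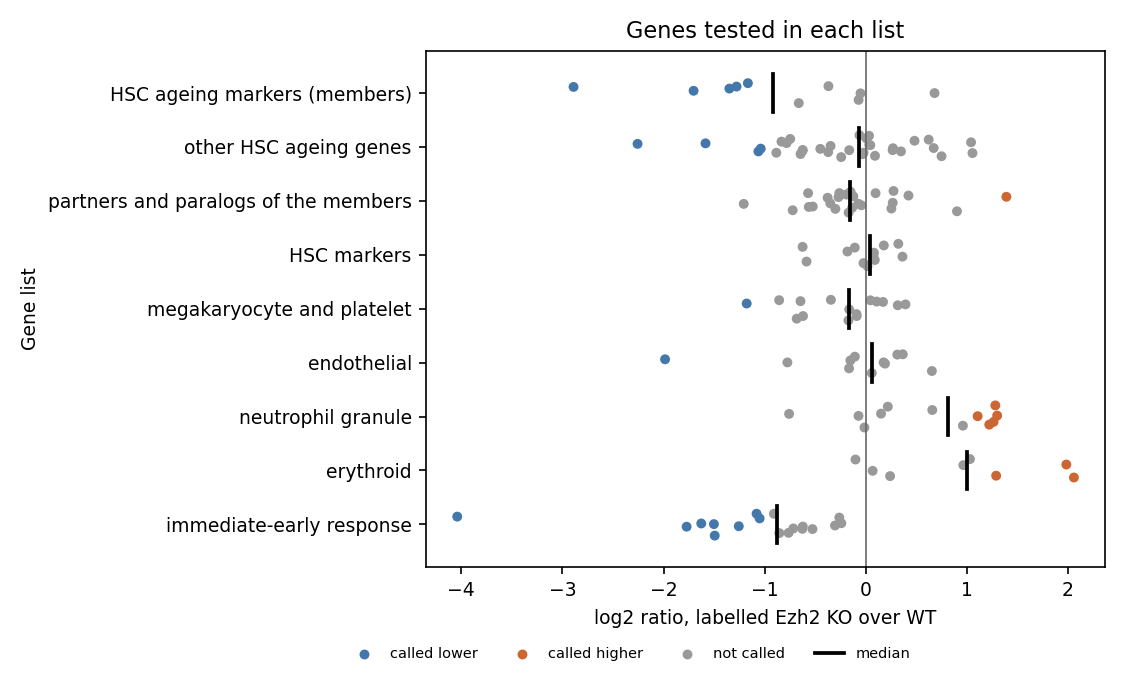
Log2 ratio of the KO-labelled library over WT (x) for the tested genes of 9 lists (y), 1 point per gene, with the median of each list as a black bar and colours for genes called lower (blue), higher (orange) or not called (grey). The median of the 10 ageing markers is -0.91, that of the other HSC ageing genes -0.06 and that of the immediate-early genes -0.88.

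Several members are also expressed by megakaryocytes, platelets or endothelium, so markers of those cells were read as whole lists. Of 16 megakaryocyte and platelet genes 15 were tested and 1 was called lower, *F2r*, a thrombin receptor (2423 and 788 counts). Their median log2 ratio was -0.16, and their summed level was 8900 normalised counts in WT and 6769 in the KO-labelled library. *Pf4*, platelet factor 4, had 415 and 195 counts (-0.65), *Itga2b* 875 and 401 (-0.68) and *Gp9* 199 and 165 (0.17). *Gp6* was at 0 in both libraries, and *Ppbp*, an abundant platelet chemokine, had 38 and 37 counts (0.39, interval -0.29 to 1.10). *Pf4*, *Gp9*, *Gp6* and *Ppbp* were picked with their values in view, as were *Cdh5*, *Sox17* and *Flt1* below. Of 15 endothelial genes 11 were tested and 1 was called lower, *Ramp2*, a subunit of the adrenomedullin receptor (154 and 28 counts). The median was 0.06 and the sum 5429 and 5329 normalised counts. *Cdh5* and *Sox17* were at 0 in both libraries and *Flt1* had 1 and 0 counts. Other endothelial genes were abundant in both, among them *Tie1* (2419 and 1588 counts), *Eng* (1401 and 957) and *Egfl7* (748 and 710). Their log2 ratios were -0.17, -0.11 and 0.37, in that order. The part of megakaryocyte RNA in the differences of the members was not tested.

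RNA of other lineages differed between the libraries. The 9 eosinophil genes summed to 10.3 normalised counts in WT and 3787 in the KO-labelled library, with *Prg2* and *Epx* at 0 in WT. Neutrophil granule genes (12 tested, 5 called higher) summed to 10460 and 19120, and erythroid genes (8 tested of 10, 3 called higher) to 8862 and 11070. The neutrophil list was split, with 9 genes above 0 and 3 below. *Elane*, named after seeing its values, had a log2 ratio of -0.76 (-0.94 to -0.58). Most of the erythroid sum was *Car2*, with 8474 and 10010. The globin genes *Hbb-bt* and *Hba-a1*, named after seeing their values, were at 0 in both. Reads aligned to more than 1 place (10.75% and 12.27% of entries) were not counted to genes, and whether this lowered the globin counts was not tested. B lymphoid genes (6 tested of 10, 5 called higher) summed to 239.4 and 490.6, and T and natural killer genes (3 tested of 10, 1 called higher) to 156.2 and 176.0. Of 10 markers gated out of the sort, 8 were listed, 5 were tested and 2 were called higher, among them *Itgam*. All 5 tested had ratios above 0, with a median log2 ratio of 0.95. *Cd34* had 957 and 829 counts, or 821.2 and 966 after normalisation (log2 ratio 0.23, interval 0.10 to 0.37). The part of these lineages in the differences of the members was not tested.

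Immediate-early genes, which respond within minutes to cytokines and to handling of cells, also had lower counts in the KO-labelled library. Of 20 such genes 18 were tested, all 18 had ratios below 0 and 8 were called lower, with a median of -0.88 and sums of 71180 and 36950 normalised counts. *Fos* had 16143 and 4198 counts, *Egr1* 10421 and 3213, and *Zfp36*, which was not called, 13698 and 5576. Whether the lower counts of the ageing markers go with this difference was not tested.

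The calls rest on counting error alone. Under edgeR's exact test with spread between libraries set by assumption to a CV (SD over mean) of 0.2, *Sbspon* was the only member called lower, against a background of 0.175% of genes tested, and at a CV of 0.4 no member was called. *Gpr183* also lost its call when the deeper WT library was thinned to the depth of the other.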

How the data were processed

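The deposited files list raw, unnormalised read counts by gene symbol for 2 libraries. Per the submitters' processing notes, reads were aligned to mm10 with TopHat2 2.0.13 and Bowtie2 2.1.0. StringTie is named for counting, but the 5 closing entries of each file carry htseq-count names, so the counter and its strand setting are unsettled. Those entries (56.1% and 56.9% of all entries, WT first) were left out.

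Counts were divided by DESeq2 1.42.0 median-of-ratios size factors (1.17 and 0.858) in R 4.3.3. With 1 library per group edgeR's quasi-likelihood test cannot be fitted. Instead, each of the genes with a mean of at least 1 CPM had an exact two-sided binomial test with the null share taken from those factors, and values were adjusted by Benjamini-Hochberg over all of them. A gene was called below 0.01 and at 2-fold or more. Intervals on ratios are Clopper-Pearson and those on levels exact Poisson. A count of 3 equals 0.521 CPM in WT and 0.722 CPM in the KO-labelled library. Positions and exon lengths came from GENCODE M21 (GRCm38, the assembly of mm10), where 24001 symbols matched, 667 through an older name. The number of bases per shared window (60) follows the read length.

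The members and lists were chosen with earlier results of these data known. Genes named are the members, genes overlapping them, and from each list the called genes and up to 5 of the most abundant; others are stated as chosen after their values were seen, and some genes the rule selects are not reported here. Simulated counts were used to check the test. With spread between libraries added to them, false calls became far more frequent and the intervals held the true ratio much less often than their stated level. Alternatives were other scalings (TMM, total counts), thinning, leaving out X and Y or lineage genes, pseudocounts, filters, thresholds and edgeR 4.0.16 with an assumed CV. Python 3.11.15, scipy 1.17.1, statsmodels 0.14.6 and matplotlib 3.10.9 were used.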

Additional observations from a re-analysis of the deposited data

How the results depend on the processing

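The settings without X and Y genes and without lineage genes were added once the data had been seen. They act on the members only through the size factors and the adjustment, so they do not test the part of sex or of other lineages, and no member's call moved under them. No paired analysis was possible because the labels pair no samples, and with 1 library per genotype none could be left out. Of 145 values under alternatives 131 stayed within 1.5 times the reported count or within counting error, and 0 changed sign where a gene was called. The number of members called lower (5) became 3 with a minimum mean of 10 CPM, which removed *Sbspon* and *Gpr183* from the test, and 1 and 0 with an assumed CV of 0.2 and 0.4. The number called higher (0) became 1, *Alcam*, at 1.5-fold and with no fold threshold. For the other HSC ageing genes, the number called lower (4) became 2 after thinning, which leaves fewer WT counts, 10 at 1.5-fold, 12 with no fold threshold, and 1 and 0 at a CV of 0.2 and 0.4. The number called higher (0) became 2 at 1.5-fold, 3 with no fold threshold, 1 at an adjusted value below 0.05, and 2 at 2-fold alone. Log2 ratios of the low-count members moved most, from -2.95 to -2.49 for *Sbspon* and from -1.75 to -1.39 for *Gpr183*, over the scalings, pseudocounts, thinning and the 2 added settings. Depth limits these 2 genes, with 8 counts each in the KO-labelled library.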
